A study of Mus musculus with 10 samples.

Results

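The genes described here encode the 4 kinases that phosphorylate the translation factor eIF2alpha, eIF2alpha itself, the 2 subunits that bring a phosphatase to it, and 2 repressors of cap-dependent translation and growth signalling. They were taken by symbol from the deposited count table of a mouse hippocampus RNA-seq series: Eif2ak1, Eif2ak2, Eif2ak3, Eif2ak4, Eif2s1, Ppp1r15a, Ppp1r15b, Eif4ebp1 and Ddit4. All 9 symbols were found among its 20156 genes, and all 9 had enough counts to be tested. The series holds 1 hippocampal library from each of 5 wild type mice (WT) and 5 mice of the genotype called TfamAKO, all aged 6 months. The product of Tfam packages mitochondrial DNA and helps start its transcription, and by its title the study asks about astrocytic mitochondria. How Tfam was altered, by which Cre and in which cells, is not stated in the labels, nor are sex, litter or batch.

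When one of the kinases phosphorylates eIF2alpha, delivery of the initiator tRNA to ribosomes slows and most translation falls, while a few mRNAs with upstream open reading frames, among them those of ATF4 and GADD34, are translated better. Each kinase answers to another cue: haem shortage and a signal from stressed mitochondria, double-stranded RNA, unfolded protein in the endoplasmic reticulum, or uncharged tRNA. A separate brake acts at the mRNA cap, where 4E-BP proteins hold the cap-binding factor eIF4E unless the kinase complex mTORC1 phosphorylates them. Phosphorylation is not seen in RNA-seq, so the values below are transcript levels only, and in whole tissue fewer cells of a type and less RNA per cell cannot be told apart.

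Of the 9 genes, 4 had higher transcript levels in TfamAKO (Eif4ebp1, Ppp1r15a, Eif2ak2 and Ppp1r15b), 1 was lower by a small margin (Eif2ak1), and 4 did not pass the test (Eif2ak3, Eif2ak4, Eif2s1 and Ddit4). The test was edgeR's two-sided quasi-likelihood F test over all 16180 genes with enough counts, with Benjamini-Hochberg adjusted p under 0.05 as the threshold. In that comparison 37.4% of all genes tested passed, 20.8% as higher and 16.6% as lower, which is the background for these counts. The 5 TfamAKO libraries did not overlap the 5 WT libraries for 4 of the 9 genes, against 23.9% of all genes tested. The median log2 fold change (TfamAKO minus WT) was 0.28 over the 9 genes and -0.02 over all genes. The unit of level is CPM, a count scaled to the library's effective size, each fold change carries its standard error (SE), and each interval is at 95%.

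**Figure D1:**
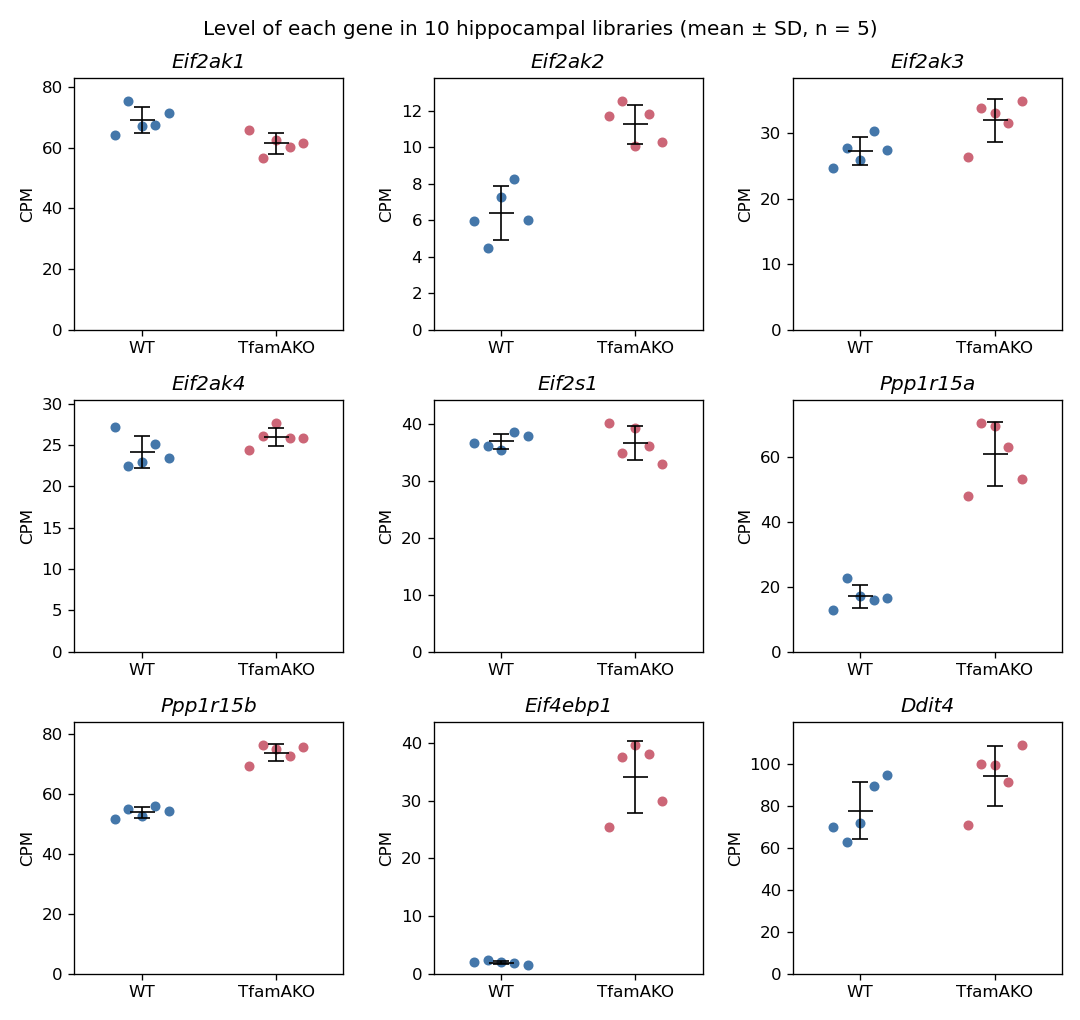
Level of each of the 9 genes in CPM (vertical axes, linear, from 0) in 5 WT and 5 TfamAKO libraries. Points are libraries in the order of their replicate numbers from left to right, and bars are the mean and SD. Ppp1r15a, Ppp1r15b, Eif4ebp1 and Eif2ak2 show no overlap between the genotypes, and the other 5 genes do.

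Total counts ran from 16584245 to 28675367 per library. Tfam was measured at 29.7 ± 5.17 CPM in WT and 22.5 ± 1.63 CPM in TfamAKO (SD, n = 5 each), with WT 3 at 20.6 CPM inside the TfamAKO range (log2 fold change -0.40 ± 0.12 SE, edgeR adjusted p = 0.0204). Its call was lost when WT 2, WT 4 or TfamAKO 3 was left out (edgeR adjusted p of 0.0580, 0.0504 and 0.0554), and on the authors' normalized values (limma adjusted p = 0.117). Markers of hippocampal neurons were present in every library, at a summed level of 472 to 647 CPM in WT and 382 to 540 CPM in TfamAKO. Markers of the choroid plexus, a tissue beside the hippocampus, summed to 7573, 5973 and 4040 CPM in WT 3, 4 and 5, against 159 and 413 CPM in WT 1 and 2 and 183 to 353 CPM in TfamAKO. TfamAKO 4 and 5 held the Y-linked transcript Kdm5d, at 22.7 and 22.4 CPM, against at most 0.699 CPM in any other library. On the first principal component TfamAKO 1 lay at 12.2, between the WT libraries (-46.2 to -34.8) and the other TfamAKO libraries (37.1 to 52.7).

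Eif2ak2, which encodes PKR, the kinase activated by double-stranded RNA and induced by interferon, was the one kinase transcript that passed the test as higher. It stood at 5.96, 4.45, 7.28, 8.28 and 5.99 CPM across WT 1 to 5 and at 11.7, 12.5, 10.04, 11.8 and 10.3 CPM across TfamAKO 1 to 5. Every TfamAKO library was above the highest WT library, WT 4. The rise was 1.76-fold (log2 fold change 0.82 ± 0.16 SE, interval 0.48 to 1.16, edgeR adjusted p = 0.00176). Without WT 3, 4 and 5, the libraries with by far the most choroid plexus transcripts, the log2 fold change was 1.15 (edgeR adjusted p = 0.00402). On the authors' normalized values with all libraries it was 1.05 (limma adjusted p = 0.00141 at a pseudocount of 1). The size of the rise thus depended on the scaling.

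Eif2ak1 encodes HRI, the haem-regulated kinase that also receives the mitochondrial stress signal carried by DELE1. Its transcript read 64.3, 75.4, 67.1, 67.5 and 71.7 CPM from WT 1 through WT 5 and 66.1, 56.7, 62.7, 60.3 and 61.7 CPM from TfamAKO 1 through TfamAKO 5. TfamAKO 1 lay above the lowest WT library, and the other 4 TfamAKO libraries lay below all of WT. The log2 fold change was -0.17 ± 0.06 SE (interval -0.30 to -0.04, edgeR adjusted p = 0.0440). This call was weak: it was lost in 17 of 24 alternative analyses, with the same sign in each. Leaving out any one of WT 2, 3, 4 or 5 or TfamAKO 2, 3, 4 or 5 ended it, with edgeR adjusted p from 0.0538 without TfamAKO 5 to 0.154 without WT 2.

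Eif2ak3 encodes PERK, the kinase of the endoplasmic reticulum membrane that senses unfolded protein. It had WT values of 24.8, 27.8, 25.9, 30.3 and 27.5 CPM and TfamAKO values of 26.4, 33.8, 33.2, 31.6 and 34.9 CPM, in replicate order. The 4 libraries TfamAKO 2 to 5 were above all of WT, while TfamAKO 1 was among the WT values. With all libraries the log2 fold change of 0.23 ± 0.09 SE (interval 0.04 to 0.42) did not pass the adjusted test (edgeR adjusted p = 0.0547). It passed without TfamAKO 1 (0.29, edgeR adjusted p = 0.00741) and without WT 4 (0.27, edgeR adjusted p = 0.0419). With the replicate number as a block, a term that treats libraries of the same number as a pair, it was 0.23 (edgeR adjusted p = 0.0469).

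Eif2ak4 encodes GCN2, the kinase that binds uncharged tRNA. It stood at 27.1, 22.4, 22.9, 25.1 and 23.4 CPM across WT 1 to 5 and at 24.4, 26.1, 27.6, 25.8 and 25.9 CPM across TfamAKO 1 to 5. The ranges overlapped, with TfamAKO 3 alone above the highest WT library. The log2 fold change of 0.10 ± 0.07 SE (interval -0.05 to 0.26, edgeR adjusted p = 0.274) did not pass in any alternative.

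Levels of different genes can be set side by side only per length, here as CPM per kilobase of each gene's longest coding transcript. On that scale Eif2ak1 was the most abundant kinase transcript, at 16.0 ± 1.01 in WT and 14.2 ± 0.788 in TfamAKO (SD, n = 5 each). Eif2ak3 stood at 6.04 ± 0.467 and 7.09 ± 0.739, Eif2ak4 at 4.56 ± 0.362 and 4.90 ± 0.215, and Eif2ak2 at 1.48 ± 0.337 and 2.61 ± 0.248. No pair of kinases overlapped within a genotype, so on this scale the order Eif2ak1, Eif2ak3, Eif2ak4, Eif2ak2 held in both. Per coding length Eif2ak2 (7.28) was above Eif2ak4 (5.51) in TfamAKO. Per shortest coding transcript, which is 927 bases for Eif2ak3 against 4513 for its longest, the mean of Eif2ak3 (29.4 in WT) was above that of Eif2ak1. Those 927 bases are fewer than the 3345 coding bases of the longest transcript, so they cannot hold the full coding sequence. The same is true of the shortest Eif2ak4 transcript, at 1715 bases against 4713 coding bases. Eif2ak1 made up 53.8% to 60.4% of the summed kinase level in WT and 46.1% to 53.7% in TfamAKO. Eif2ak2 made up 3.57% to 6.62% in WT and 7.92% to 10.2% in TfamAKO. The mean share of Eif2ak1 was lower in TfamAKO for every length used, but its size depended on that length, with 68.1% in WT and 59.6% in TfamAKO per coding length and 26.2% and 21.5% per shortest coding transcript.

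Eif2s1 encodes eIF2alpha, the substrate shared by the 4 kinases. The stretch of its mouse coding sequence around the serine they phosphorylate is shown because all 4 act on it. Its codon, in capitals, is codon 52 of 315 with the initiator methionine counted and serine 51 by the usual numbering (chromosome 12, GENCODE M21 transcript):
Eif2s1: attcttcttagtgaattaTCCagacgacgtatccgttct

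The Eif2s1 transcript read 36.5, 36.1, 35.4, 38.5 and 37.7 CPM from WT 1 through WT 5 and 40.0, 34.9, 39.3, 36.0 and 32.9 CPM from TfamAKO 1 through TfamAKO 5. The TfamAKO libraries lay on both sides of the WT range, with 2 above and 2 below it. The log2 fold change was -0.01 ± 0.07 SE (interval -0.16 to 0.14, edgeR adjusted p = 0.923), and its sign changed in 6 of the 24 alternatives.

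Both phosphatase subunits rose. Ppp1r15a encodes GADD34, the inducible subunit that recruits protein phosphatase 1 to eIF2alpha and closes the feedback of the stress response, and Ppp1r15b encodes CReP, its constitutive counterpart. Each carries a short docking motif for the catalytic phosphatase. The coding stretches around it are shown because both paralogues carry this motif. Its codons are in capitals, codons 548 to 551 of 657 in Ppp1r15a (chromosome 7) and 623 to 626 of 697 in Ppp1r15b (chromosome 1), from GENCODE M21:
Ppp1r15a: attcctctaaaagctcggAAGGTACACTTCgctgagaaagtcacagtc
Ppp1r15b: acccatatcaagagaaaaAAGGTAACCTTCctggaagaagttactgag

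Ppp1r15a had WT values of 12.7, 22.7, 17.3, 15.8 and 16.5 CPM and TfamAKO values of 48.1, 70.5, 69.5, 63.2 and 53.3 CPM, in replicate order. The lowest TfamAKO library, TfamAKO 1, was above the highest WT library, WT 2. The rise was 3.57-fold (log2 fold change 1.84 ± 0.15 SE, interval 1.51 to 2.16, edgeR adjusted p = 5.47e-06), which placed Ppp1r15a at rank 270 of 16180 genes by fold change. In the authors' normalized table it read 228 to 590 in WT and 1085 to 1846 in TfamAKO, again without overlap. Relative to the median gene of each library, the ratio of that normalized value to the count ran from 0.777 to 1.263 in WT for Ppp1r15a, so their scaling of a library was not one factor for all genes.

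Ppp1r15b stood at 51.5, 54.9, 52.6, 56.1 and 54.4 CPM across WT 1 to 5 and at 69.3, 76.3, 74.9, 72.8 and 75.7 CPM across TfamAKO 1 to 5. The genotypes were apart, with every TfamAKO library above WT 4, the highest of WT. The rise was 1.37-fold (log2 fold change 0.45 ± 0.05 SE, interval 0.34 to 0.56, edgeR adjusted p = 4.78e-05). Per kilobase of longest transcript, Ppp1r15a went from 6.06 ± 1.29 in WT to 21.7 ± 3.53 in TfamAKO, and Ppp1r15b from 9.64 ± 0.328 to 13.2 ± 0.508 (SD, n = 5 each). The share of Ppp1r15a in their sum was 33.0% to 45.2% in WT and 58.0% to 64.9% in TfamAKO. The mean share of Ppp1r15a was 24.9% in WT and 46.4% in TfamAKO per coding length, and 81.6% and 92.1% per shortest coding transcript. This share was higher in TfamAKO on each length. The shortest Ppp1r15a transcript has 389 bases, fewer than the 1974 coding bases of the longest, so it cannot hold the full coding sequence. Per longest transcript and per coding length, Ppp1r15b was the larger in WT. In TfamAKO the larger of the 2 differed between those lengths.

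The 250 bases before the RefSeq start of Ppp1r15a (GRCm38.p6, chr7:45526269-45526518, minus strand) are shown because Ppp1r15a changed most among the genes whose promoters were matched, 7 of the 9. Both strands were searched for 4 motifs. They were the cyclic AMP response element TGACGTCA, the interferon-type repeat GAAANNGAAA, the core TGATGNAA of C/EBP-ATF composite sites and the endoplasmic reticulum stress element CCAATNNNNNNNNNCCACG. The capitals mark the matches: GAAAGGGAAA at 220 to 211 bases and TGACGTCA at 12 to 5 bases before the start.
Ppp1r15a: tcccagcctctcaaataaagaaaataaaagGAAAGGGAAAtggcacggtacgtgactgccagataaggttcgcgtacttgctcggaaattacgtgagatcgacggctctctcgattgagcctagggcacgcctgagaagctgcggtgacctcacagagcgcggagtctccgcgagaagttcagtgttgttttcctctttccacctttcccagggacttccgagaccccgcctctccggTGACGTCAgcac

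Among 32851 mouse promoters of the same length, 1.55% held TGACGTCA, 2.98% held GAAANNGAAA, 3.45% held TGATGNAA and 0.113% held the endoplasmic reticulum stress element. Eif2s1 held GAAACAGAAA 212 to 203 bases before its start. None of these letters were found in the windows of Eif2ak1, Eif2ak2, Eif2ak3, Eif2ak4 and Ddit4. A match describes the letters only, not a bound site.

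Eif4ebp1 changed most of the 9 genes. It encodes 4E-BP1, which binds eIF4E through a short motif and keeps it from the scaffold eIF4G. The coding stretches around that motif in Eif4ebp1 and in its paralogue Eif4ebp2 are shown because both products compete for the same partner, with the motif's codons in capitals, codons 53 to 59 of 117 in Eif4ebp1 (chromosome 8) and 54 to 60 of 120 in Eif4ebp2 (chromosome 10), from GENCODE M21:
Eif4ebp1: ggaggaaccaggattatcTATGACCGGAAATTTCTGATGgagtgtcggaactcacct
Eif4ebp2: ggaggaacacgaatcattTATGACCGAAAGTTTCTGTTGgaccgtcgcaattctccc

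Eif4ebp1 read 2.03, 2.26, 1.98, 1.85 and 1.46 CPM from WT 1 through WT 5 and 25.4, 37.6, 39.7, 38.1 and 29.9 CPM from TfamAKO 1 through TfamAKO 5. WT was uniformly low, with at least 33 counts in each library, and the lowest TfamAKO library was far above all of WT. The rise was 17.9-fold (log2 fold change 4.16 ± 0.16 SE, interval 3.81 to 4.51, edgeR adjusted p = 1.77e-08). Eif4ebp1 ranked 33 by fold change and 6 by p among the 16180 genes.

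The other 4E-BP transcripts did not pass the test. Eif4ebp2, the main 4E-BP of brain, was measured at 77.9 ± 7.72 CPM in WT and 73.4 ± 4.01 CPM in TfamAKO (SD, n = 5 each), with a log2 fold change of -0.09 ± 0.07 SE (edgeR adjusted p = 0.371). Eif4ebp3 was at most 1.37 CPM in any library. Per kilobase of longest transcript, Eif4ebp1 made up 4.94% to 7.82% of the summed 4E-BP level in WT and 49.6% to 61.7% in TfamAKO. That share was 2.47% in WT and 32.0% in TfamAKO per coding length, and 1.72% and 24.6% per shortest coding transcript, so whether Eif4ebp1 passed Eif4ebp2 in TfamAKO depends on the length, and its higher share in TfamAKO does not. Eif4e, which encodes their target, was at 93.3 ± 3.36 CPM in WT and 93.1 ± 4.65 CPM in TfamAKO (SD, n = 5 each, log2 fold change -0.00 ± 0.05 SE, edgeR adjusted p = 0.965).

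**Figure D2:**
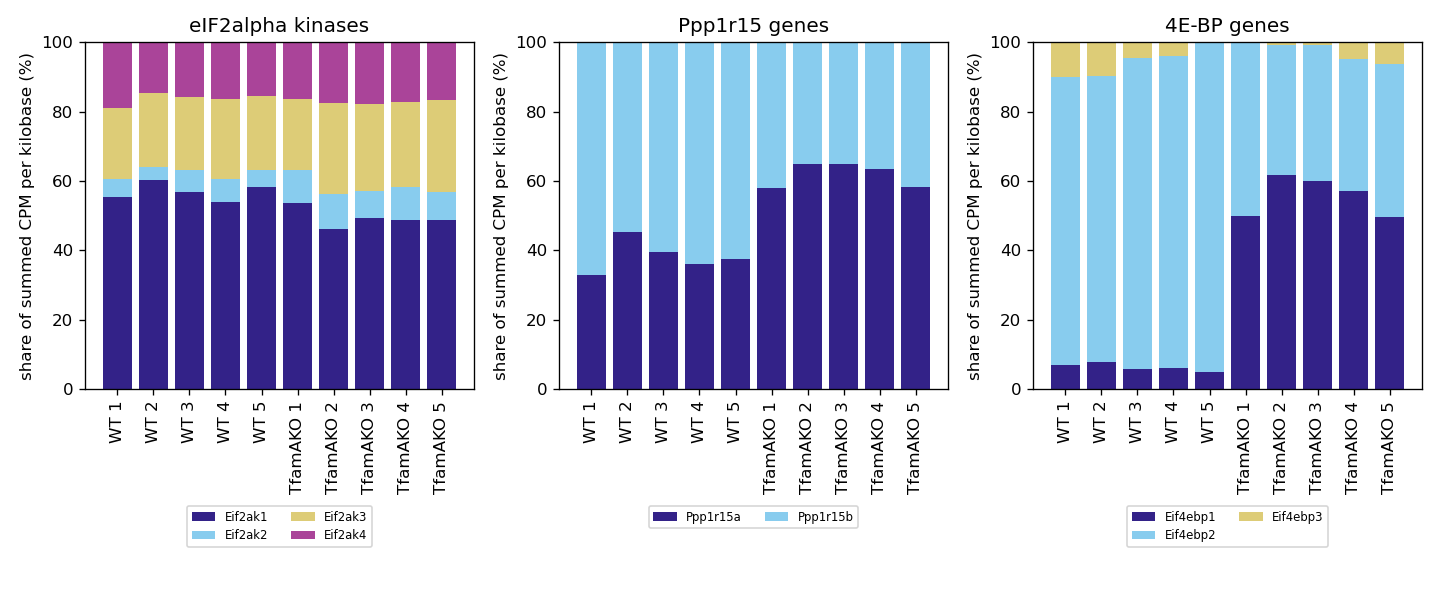
Share of each transcript in its family's summed CPM per kilobase of longest coding transcript (vertical axes, percent), with 1 stacked bar for each of the 10 libraries. In all 5 TfamAKO libraries the segments of Ppp1r15a (58.0% to 64.9%) and Eif4ebp1 (49.6% to 61.7%) are larger than in any WT library.

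Ddit4 encodes REDD1, a stress-induced inhibitor of mTORC1 that acts through the TSC complex. It had WT values of 70.0, 62.5, 71.7, 89.3 and 94.4 CPM and TfamAKO values of 70.8, 99.9, 99.4, 91.4 and 109 CPM, in replicate order. The groups overlapped at both ends: TfamAKO 1 was among the low WT libraries, and WT 4 and 5 were close to the other TfamAKO libraries. The log2 fold change of 0.28 ± 0.13 SE (interval -0.01 to 0.56, edgeR adjusted p = 0.116) did not pass the test. It passed only without TfamAKO 1 (0.36, edgeR adjusted p = 0.0245). Without WT 3, 4 and 5 it was 0.53 (edgeR adjusted p = 0.0503).

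**Figure D3:**
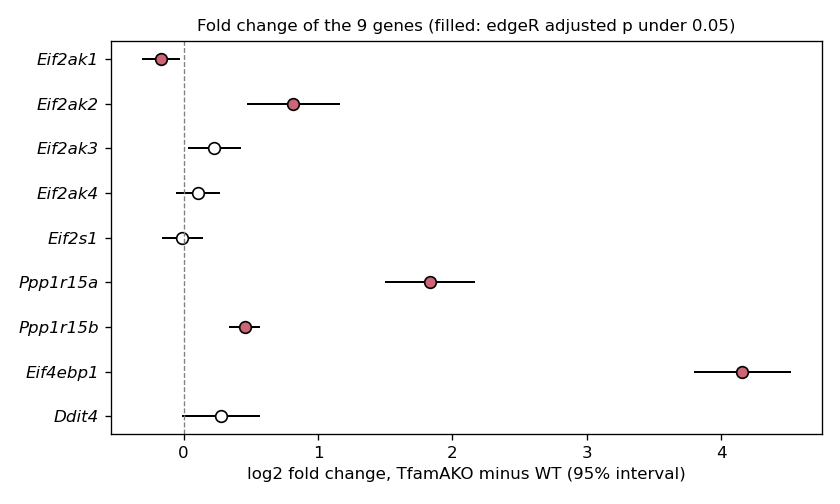
Log2 fold change (horizontal axis, TfamAKO minus WT) of each of the 9 genes with its 95% interval. Filled points have an edgeR adjusted p under 0.05. Eif4ebp1 (4.16) and Ppp1r15a (1.84) lie farthest to the right, and the interval of Eif2s1 spans 0.

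Per kilobase of longest transcript, the order of the 9 genes in WT was Ddit4 (44.2), Eif2ak1 (16.0), Eif2s1 (10.8), Ppp1r15b (9.64), Ppp1r15a (6.06), Eif2ak3 (6.04), Eif2ak4 (4.56), Eif2ak2 (1.48) and Eif4ebp1 (0.959). Of these neighbours, Ppp1r15a overlapped Eif2ak3, and Eif2ak2 overlapped Eif4ebp1. In TfamAKO, Ppp1r15a (21.7) and Eif4ebp1 (17.1) came next after Ddit4 (53.6), followed by Eif2ak1 (14.2), Ppp1r15b (13.2), Eif2s1 (10.8), Eif2ak3 (7.09), Eif2ak4 (4.90) and Eif2ak2 (2.61). There, Eif4ebp1 overlapped both Ppp1r15a above it and Eif2ak1 below it, and Eif2ak1 overlapped Ppp1r15b. Other lengths change both orders: per coding length Eif2s1 (38.9) stood above Eif2ak1 (37.2) in WT, and Eif4ebp1 (96.4) stood above Ppp1r15a (30.9) in TfamAKO.

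TfamAKO 1 was the lowest TfamAKO library for Eif4ebp1, Ppp1r15a, Ppp1r15b, Eif2ak3, Eif2ak4 and Ddit4 and the highest for Eif2ak1 and Eif2s1. Without it, the log2 fold changes were 4.25 for Eif4ebp1, 1.91 for Ppp1r15a, 0.47 for Ppp1r15b and 0.80 for Eif2ak2, and all 4 stayed past the threshold. Without WT 3, 4 and 5 they were 4.002, 1.79, 0.50 and 1.15, and without TfamAKO 4 and 5 they were 4.16, 1.88, 0.45 and 0.84, again past it. These 4 calls held in all 24 alternatives.

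Several cell type markers moved with genotype, while none of 5 hippocampal neuron and 4 oligodendrocyte markers passed. Among all genes tested 37.4% passed. The 5 markers of reactive astrocytes all rose, from a summed 435 to 646 CPM in WT to 2817 to 4236 CPM in TfamAKO. Of 6 microglial markers 5 rose, from 269 to 321 CPM in sum to 457 to 538 CPM, and of 4 endothelial markers 3 rose, from 140 to 184 CPM to 205 to 367 CPM. Of 4 neuronal markers 2 fell, from 3730 to 4027 CPM to 2879 to 3471 CPM in sum. Of 6 astrocyte markers 3 rose and 2 fell, with sums of 3731 to 4460 CPM in WT and 2840 to 4172 CPM in TfamAKO. Of the markers in these lists, none was at 0 in all libraries. Their part in the rise of Eif4ebp1, Ppp1r15a, Ppp1r15b and Eif2ak2 was not tested.

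The genes whose profiles over the 10 libraries were most like the 2 largest changes were found by the root mean square difference of log2 CPM, after each gene's WT mean was set to 0, among 14789 genes of at least 1 CPM. For Ppp1r15a they were Tead3 (0.150), St14 (0.162) and Slc25a34 (0.166). For Eif4ebp1 they were Vim (0.301), Tubb6 (0.310) and Osmr (0.362). Of these, Vim and Osmr are also in the list of reactive astrocyte markers. This measure mainly picks genes of like log2 fold change, here 4.01 for Vim, 4.37 for Tubb6 and 4.32 for Osmr beside 4.16 for Eif4ebp1. Whether they share control or a cell type with Eif4ebp1 was not tested.

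The other genes of the pathway were taken from lists drawn up by function, with earlier results of these data known. Over 82 of them 28 rose and 8 fell, with a median log2 fold change of 0.11. Sesn2 is in both the mTORC1 and the ATF4 list and was counted once among the 82. Among all genes tested 20.8% were higher and 16.6% lower. The share called in each list is to be read against the 37.4% called among all genes, as a description and not a test. All were tested in the same fit, and each rise, fall and median given for these lists without a unit is a log2 fold change.

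Of 12 genes for the other eIF2 subunits, the exchange factor eIF2B and their partners, 2 rose and none fell (median 0.13, 16.7% called). Eif2s2, which encodes eIF2beta, stood at 73.2, 76.4, 64.1, 70.1 and 64.6 CPM across WT 1 to 5 and at 90.6, 101, 103, 102 and 95.5 CPM across TfamAKO 1 to 5. It was apart between genotypes (log2 fold change 0.50 ± 0.06 SE, edgeR adjusted p = 1.26e-04), unlike Eif2s1, whose product sits in the same complex. Eif1, which encodes a start codon selection factor, rose by 0.28 ± 0.06 SE (edgeR adjusted p = 0.00397). The eIF2B subunit genes with the smallest p, Eif2b2 (0.16 ± 0.08 SE, edgeR adjusted p = 0.129) and Eif2b3 (0.17 ± 0.09 SE, edgeR adjusted p = 0.155), did not pass. Eif2b2 did pass on the authors' normalized values with limma (0.35, limma adjusted p = 0.0236 at a pseudocount of 1) and with the ratio of those values to the counts as an offset in edgeR (0.35, edgeR adjusted p = 0.0247).

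Of 12 activators, inhibitors and phosphatase partners of the kinases, 3 rose and 2 fell (median 0.10, 41.7% called). Oma1, the mitochondrial protease that cleaves DELE1, went from 5.01 ± 0.457 to 6.72 ± 0.788 CPM (SD, n = 5 each, log2 fold change 0.42 ± 0.13 SE, edgeR adjusted p = 0.0197). Dele1 (0.21 ± 0.06 SE, edgeR adjusted p = 0.0254) and Gcn1, which encodes the ribosome-bound activator of GCN2 (0.20 ± 0.06 SE, edgeR adjusted p = 0.0234), rose by less. These 3 calls were near the threshold. Each kept its sign in every alternative but was lost when certain single libraries were left out. Oma1 lost its call without WT 5 (edgeR adjusted p = 0.0560) or TfamAKO 3 (0.0556). Dele1 lost it without any one of WT 1, 4 or 5 or TfamAKO 2 or 3 (edgeR adjusted p up to 0.0653). Gcn1 lost it without any one of WT 4 or 5 or TfamAKO 2, 3 or 4 (edgeR adjusted p up to 0.0717). On the authors' normalized values neither passed, with limma adjusted p = 0.0641 for Dele1 at a pseudocount of 1 and 0.488 for Gcn1, whose log2 fold change was 0.08 there and with the offset (edgeR adjusted p = 0.515). Of the genes for the catalytic phosphatase that both Ppp1r15 products bind, Ppp1cc fell from 187 ± 6.61 to 155 ± 7.29 CPM (SD, n = 5 each, log2 fold change -0.27 ± 0.05 SE, edgeR adjusted p = 0.00169). Its paralogues Ppp1ca (-0.09 ± 0.05 SE, edgeR adjusted p = 0.194) and Ppp1cb (0.04 ± 0.06 SE, edgeR adjusted p = 0.636) did not pass. The other gene of this list that fell was Impact, which encodes an inhibitor of GCN2. It went from 207 ± 16.3 to 172 ± 21.8 CPM (SD, n = 5 each, log2 fold change -0.27 ± 0.09 SE, edgeR adjusted p = 0.0374), with overlap between the genotypes.

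Of 16 genes for the cap-binding complex, the other 4E-BPs and their regulators, 4 rose and 2 fell (median 0.03, 37.5% called). Mknk1, which encodes a kinase of eIF4E, rose by 0.50 ± 0.08 SE (edgeR adjusted p = 5.79e-04), and Eif4b, which encodes a cofactor of the helicase eIF4A, rose by 0.35 ± 0.07 SE (edgeR adjusted p = 0.00280). Eif4a2, one of the helicase's genes, fell from 582 ± 22.6 to 446 ± 35.9 CPM (SD, n = 5 each, log2 fold change -0.39 ± 0.06 SE, edgeR adjusted p = 6.51e-04). Eif4e3 fell by 0.40 on the log2 scale (edgeR adjusted p = 0.0406), a call lost without any one of WT 1, 3, 4 or 5 or TfamAKO 2, 3 or 4 (edgeR adjusted p up to 0.0989) and on the normalized values (limma adjusted p = 0.0549).

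Of 25 genes for mTORC1 and its regulators, 7 rose and 3 fell (median -0.06, 40% called). Sesn2, which encodes a leucine sensor, went from 21.4 ± 1.69 to 87.0 ± 14.1 CPM (SD, n = 5 each, log2 fold change 2.02 ± 0.11 SE, edgeR adjusted p = 2.33e-07). Castor1, which encodes an arginine sensor, rose by 1.48 ± 0.22 SE (edgeR adjusted p = 3.29e-04), and Ddit4l, the paralogue of Ddit4, rose by 1.07 ± 0.18 SE (edgeR adjusted p = 7.26e-04). Rragd, which encodes a Rag GTPase that brings mTORC1 to lysosomes, rose by 0.57 ± 0.08 SE (edgeR adjusted p = 2.19e-04). The 3 that fell were Castor2, Nprl2 and Mlst8. Castor2, the paralogue of Castor1, went from 155 ± 6.72 to 122 ± 20.8 CPM (SD, n = 5 each, log2 fold change -0.35 ± 0.10 SE, edgeR adjusted p = 0.015). Castor1 stood lower in both, at 4.58 and 12.8 CPM. Nprl2 had -0.22 ± 0.07 SE (edgeR adjusted p = 0.0265) and Mlst8 -0.20 ± 0.07 SE (edgeR adjusted p = 0.0354).

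Ddit4l read 12.1, 10.9, 10.2, 13.3 and 9.71 CPM from WT 1 through WT 5 and 17.8, 32.5, 26.9, 24.6 and 16.6 CPM from TfamAKO 1 through TfamAKO 5. Every TfamAKO library was above all of WT, in contrast to the overlapping values of Ddit4. The difference between the responses of these paralogues was not tested.

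Of 7 genes for elongation, 3 rose and 1 fell (median 0.13, 57.1% called). Eef2k, which encodes the kinase that slows elongation by phosphorylating eEF2, rose by 0.47 ± 0.08 SE (edgeR adjusted p = 7.71e-04), and Eef1a1 rose by 0.35 ± 0.08 SE (edgeR adjusted p = 0.00478). Eef1a1 has near-identical processed pseudogenes, which makes its counts uncertain. Eef1a2, the paralogue of Eef1a1 used by mature neurons, fell from 1160 ± 40.8 to 823 ± 126 CPM (SD, n = 5 each, edgeR adjusted p = 0.00133). Eef1b2 rose by 0.16 ± 0.06 SE (edgeR adjusted p = 0.0416), a call lost without any one of WT 1, 3, 4 or 5 or TfamAKO 2, 3 or 4 (edgeR adjusted p up to 0.109) and on the normalized values (limma adjusted p = 0.0609).

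Of 11 genes for ATF4 and its axis, which the eIF2alpha kinases switch on, 10 rose and none fell (median 2.02, 90.9% called). Sesn2 is in this list as well as in the mTORC1 list, and the median is its value. The rises included Trib3, an inhibitor of ATF4 (5.64 ± 0.24 SE, edgeR adjusted p = 3.20e-08), Nupr1 (4.45 ± 0.18 SE, edgeR adjusted p = 1.82e-08) and Atf5 (2.45 ± 0.13 SE, edgeR adjusted p = 2.35e-07). Trib3 was near the floor in WT, at 0.123 to 0.676 CPM and as few as 2 counts, so its fold size is uncertain. Atf4 itself rose by 0.62 ± 0.11 SE (edgeR adjusted p = 0.00109), with overlap between TfamAKO 4 (101.0 CPM) and WT 2 (102.6 CPM). As background, Eif4ebp1, Sesn2 and Ppp1r15a are known targets of ATF4 or of its partner CHOP.

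**Figure D4:**
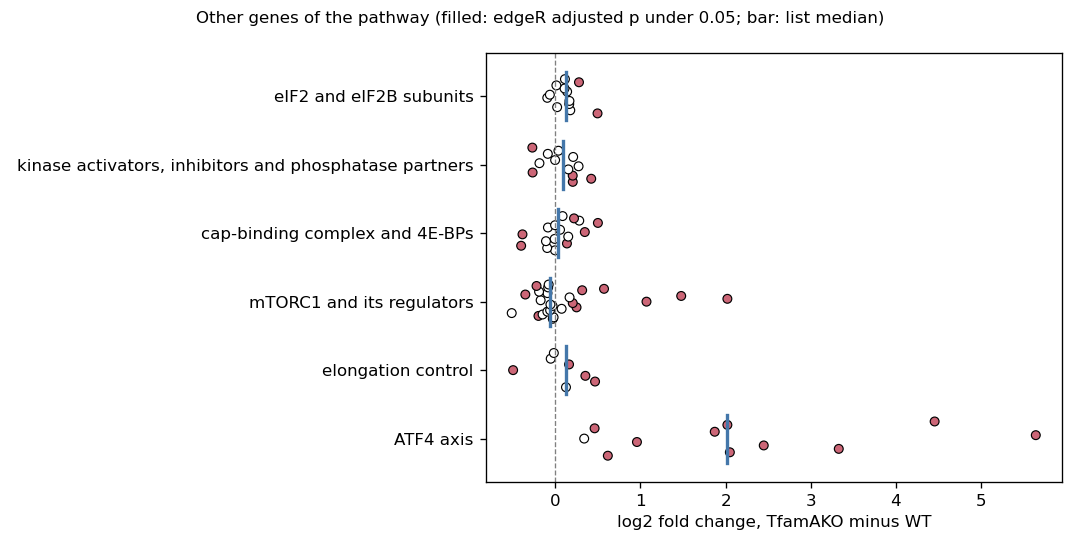
Log2 fold change (horizontal axis, TfamAKO minus WT) of the other genes of the pathway, in 6 lists. Each gene is 1 point in its list, and Sesn2 is a point in both the mTORC1 and the ATF4 list. Vertical offsets are for legibility only. Filled points have an edgeR adjusted p under 0.05 and bars are list medians. The ATF4 list has its median at 2.02, and the medians of the other lists lie between -0.06 and 0.13.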

How the data were processed

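Hippocampal RNA of 10 mice was sequenced from stranded mRNA libraries, per the labels' protocols. The deposited table of estimated counts holds whole numbers, and the deposited normalized values were treated as a signal of unknown scaling. The submitters' processing notes name Salmon (no version) and DESeq2 1.26.0, with no role. Build and annotation: not given in the sources used here. Each library is 1 mouse, per the series' design text.

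Counts were tested with edgeR 4.0.16 in R 4.3.3: filterByExpr (minimum count 10), TMM scaling, genotype as the only term, the two-sided quasi-likelihood F test and Benjamini-Hochberg adjustment over 16180 genes. SE is the absolute log2 fold change over the square root of F. The steps were tested on simulated data. Alternatives were other scalings and filters, DESeq2 1.42.0, limma-voom (limma 3.58.1), limma on log2 of the normalized values (pseudocounts 0.5, 1 and 5), a replicate block and left-out libraries. Lengths and coding stretches came from GENCODE M21 and promoters from RefSeq.

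The members and lists were chosen with earlier results of these data known. Named were the 9 genes, Tfam, up to 4 genes of smallest p per pathway list, and the 3 genes most like each member that passed with a log2 fold change over 1. Atf4, Eif4e, Eif4ebp2, Eif4ebp3, Ppp1ca, Ppp1cb, Impact, Castor2, Nprl2, Mlst8, Eif2s3x, Kdm5d and Xist were named outside this rule, after their values were seen.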

Additional observations from a re-analysis of the deposited data

How the results depend on the processing

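Over 24 alternatives, 2 of them chosen after seeing the data (the authors' ratio as an offset, and leaving out WT 3 to 5 with TfamAKO 4 and 5), the calls of Eif4ebp1, Ppp1r15a, Ppp1r15b and Eif2ak2 held in each. Of 30 other genes named by rule 28 passed. Save for Tfam, the rule picked them for a small p or for likeness to a called member. How many passed was thus largely set by the choice. Of the 28, 15 kept their call in every alternative and 13 lost it in at least 1. Genes named outside the rule are not in this count. Eif2ak1, the 1 member called lower, left 0 members lower with no filter on low counts (log2 fold change -0.17), with limma on normalized values at each pseudocount (-0.18), with the offset (-0.18), without TfamAKO 4 and 5 (-0.16), without WT 3 to 5 (-0.16) and without both sets (-0.19). Leaving out 1 library in turn gave 0 to 1 members lower and log2 fold changes of -0.20 to -0.12 for Eif2ak1, 0.20 to 0.29 for Eif2ak3 and 0.22 to 0.36 for Ddit4. Same-numbered libraries did not deviate together (r from -0.142 to 0.0691, 0 of 5 closest to their own number). The replicate block left 0 members lower and 5 pathway genes lower, with -0.17 for Eif2ak1 and 0.23 for Eif2ak3. Pathway genes called lower were also 5 with limma on normalized values and with the offset, 3 without WT 3 to 5, 4 without both sets, and 4 to 10 with 1 library left out. Pathway genes called higher were 17 without WT 3 to 5 and 13 without both sets. Oma1, Eif4b and Eef1a1 lost their calls without WT 3 to 5 (edgeR adjusted p of 0.0787, 0.0535 and 0.0569), as did Gcn1, Dele1, Eif4e3 and Eef1b2 (0.263, 0.0608, 0.414 and 0.237). Over all genes, 3369 were higher and 2679 lower with all libraries, against 2002 and 750 without WT 3 to 5 and 1267 and 584 without both sets, where fewer libraries were compared. Other causes were not tested. Mean shares per coding length and per shortest coding transcript were 68.1% and 26.2% (Eif2ak1, WT), 59.6% and 21.5% (Eif2ak1, TfamAKO), 24.9% and 81.6% (Ppp1r15a, WT), 46.4% and 92.1% (Ppp1r15a, TfamAKO), 2.47% and 1.72% (Eif4ebp1, WT), and 32.0% and 24.6% (Eif4ebp1, TfamAKO). The shortest transcripts of Ppp1r15a, Eif2ak3 and Eif2ak4 are shorter than their full coding sequences, which limits the shares of Ppp1r15a and Eif2ak1 per shortest coding transcript. Depth limits Eif4ebp1 most in WT, where a library held as few as 33 counts. Intervals give the uncertainty of the difference between genotypes, estimated from 5 mice per group.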

Other observations

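Eif2s3x, the X-linked gene of eIF2gamma, read 151, 185, 166, 172 and 172 CPM from WT 1 through WT 5 and 182, 243, 229, 161 and 141 CPM from TfamAKO 1 through TfamAKO 5. Its log2 fold change of 0.18 ± 0.13 SE did not pass (edgeR adjusted p = 0.318), and the TfamAKO libraries spread more widely than WT. The 2 lowest, TfamAKO 4 and 5, were the libraries with the Y-linked Kdm5d at 22.7 and 22.4 CPM. The X-linked transcript Xist was at 0.141 and 0 CPM there, at 249 to 286 CPM in TfamAKO 1 to 3 and at 201 to 467 CPM in WT. The part of sex in the Eif2s3x values was not tested.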
